A study of Mus musculus with 14 samples.

Results

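The genes described here are the neutrophil-attracting chemokines Cxcl1, Cxcl2, Cxcl3 and Cxcl5, the interleukin-1 genes Il1b and Il1rn, the acute-phase gene Saa3, the schlafen Slfn4, the pentraxin Ptx3 and the granule gene Ngp. They are 10 of the 18193 genes measured in mouse mammary gland and were chosen by name, with their responses to estrogen receptor blockers already known. Their 15 probe sets carry 1 gene symbol each, and a gene is given by its probe set with the highest mean over 14 arrays. A further probe set shared by Slfn4 and Slfn3 is not counted among them.

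All arrays came from female C57BL/6 mice whose ovaries had been removed 7 days before. RNA was taken 3 h after an injection, and the mammary glands of a group of 8 mice were pooled. Vehicle, 17β-estradiol (E2), acolbifene (EM-652.HCl) and E2+acolbifene have 2 arrays each. Raloxifene, tamoxifen citrate and fulvestrant, each given alone or together with E2, have 1 array each. The sources used here give no blocker dose, so levels under different blockers are set side by side without a claim of matched dose. The labels do not state that paired arrays were hybridised with RNA of different pools, so p-values here reflect array-to-array spread that may be only technical.

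Cxcl1, Cxcl2, Cxcl3 and Cxcl5 are secreted ligands that draw neutrophils into tissue through the receptor Cxcr2, and they are classical targets of NF-kB signalling. Il1b encodes the inflammatory cytokine interleukin-1β, and Il1rn encodes the antagonist that occupies its receptor. Saa3 is a serum amyloid A made outside the liver by macrophages and fat cells, Ptx3 is a secreted pattern recognition protein of macrophages and stromal cells, Slfn4 is a schlafen of myeloid cells, and Ngp is a granule protein of developing neutrophils. Acolbifene, raloxifene and tamoxifen are selective estrogen receptor modulators, whereas fulvestrant is a steroidal antagonist that also promotes loss of the receptor.

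The promoters of 3 chemokines are shown because these neighbouring genes share a sequence feature yet were not measured alike. The promoter table of RefSeq (GRCm38.p6) holds 9 of the 10 genes, in 11 windows that run from 250 bases before the gene's start to 50 bases from the start on. All 3 windows are on the plus strand, at chr5:90785851-90786150 for Cxcl3, chr5:90890995-90891294 for Cxcl1 and chr5:90903649-90903948 for Cxcl2. Capitals mark the match to the NF-kB-like letters GGANNTTCC.
Cxcl2: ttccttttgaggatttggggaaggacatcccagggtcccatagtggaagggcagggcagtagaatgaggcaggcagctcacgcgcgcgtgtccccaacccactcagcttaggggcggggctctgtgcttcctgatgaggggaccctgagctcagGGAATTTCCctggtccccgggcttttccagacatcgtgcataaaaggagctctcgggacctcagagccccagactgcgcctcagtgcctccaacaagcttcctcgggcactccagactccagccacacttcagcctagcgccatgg
Cxcl3: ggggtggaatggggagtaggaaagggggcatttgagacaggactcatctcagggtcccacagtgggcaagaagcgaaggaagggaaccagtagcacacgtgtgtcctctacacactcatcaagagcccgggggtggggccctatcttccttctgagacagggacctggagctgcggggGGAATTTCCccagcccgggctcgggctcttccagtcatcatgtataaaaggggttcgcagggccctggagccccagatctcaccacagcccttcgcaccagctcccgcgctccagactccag
Cxcl1: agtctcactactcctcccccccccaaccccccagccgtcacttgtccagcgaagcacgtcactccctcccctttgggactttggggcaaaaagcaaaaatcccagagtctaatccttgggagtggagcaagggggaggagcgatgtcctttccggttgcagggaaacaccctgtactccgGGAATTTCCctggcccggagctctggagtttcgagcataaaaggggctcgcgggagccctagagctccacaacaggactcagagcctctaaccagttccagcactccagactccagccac
The match was GGAATTTCC in all 3, and its bases lay 96 to 88 before the start of Cxcl2, 72 to 64 before that of Cxcl3 and 70 to 62 before that of Cxcl1. It occurred in none of the windows of the other 6 genes, and in 4.26% of the 32851 windows of the table. The C/EBP-like letters TTGCNNAA were present for Saa3, Ptx3 and Ngp (10.8% of all windows). The AP-1 letters TGANTCA were present for Il1rn and Slfn4 (7.81% of all windows). The letters TATAAA were present for Cxcl3, Il1b, Il1rn and Slfn4 (13.6% of all windows). The windows of Cxcl1 and Cxcl2 held none of the last 3 motifs, and the TATAAA of Cxcl3 did not overlap its capitals. All motifs were searched on both strands, none was tested against the arrays, and a match is a description of the letters only.

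Some facts about the arrays bear on every value below. The raw-file names of the arrays carry 1 of 2 codes, 7 arrays each: R137 for vehicle, acolbifene, E2+acolbifene and E2 array 2, and R136 for E2 array 1 and all arrays of raloxifene, tamoxifen and fulvestrant. A difference between these blockers and vehicle is therefore also a difference between codes, and the 2 cannot be told apart from those arrays alone, whereas acolbifene and vehicle share a code and so do the other 3 blockers. The rest of the raw-file name of the raloxifene array is that of the E2+acolbifene arrays. Over 13313 genes its deviations from the mean of all arrays correlated with theirs at only 0.03 and 0.14, against 0.50 between those arrays themselves. The progesterone receptor gene Pgr, an estrogen target, stood at 8.05 and 7.57 under vehicle and at 10.59 and 10.55 under E2. With acolbifene, raloxifene, fulvestrant and tamoxifen alone it stood at 8.81 and 8.38, 9.41, 7.88 and 9.57. Given with E2, it stood at 9.62 and 9.60 for acolbifene, 10.07 for raloxifene, 10.55 for fulvestrant and 10.59 for tamoxifen. The last 2 were as high as under E2 alone, and the raloxifene level lay close to that of tamoxifen and to those of the E2+acolbifene arrays, whose raw-file name it shares. Mean levels of 10 skeletal muscle genes ranged from 7.86 on the E2+raloxifene array to 10.22 on an E2+acolbifene array, and were 8.67 and 9.98 on the E2 arrays.

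Of the 10 genes, 7 shared their set of 5 highest arrays, but not the order within it. Cxcl2, Cxcl3, Cxcl5, Il1b, Il1rn, Saa3 and Slfn4 all had their 5 highest levels on the same 5 arrays, namely both acolbifene arrays and those of raloxifene, fulvestrant and E2+raloxifene. Of all genes, 0.704% had that same set of 5. The gap between the lowest of the 5 and the highest other array was only 0.01 for Slfn4 and 0.03 for Il1b, and up to 0.66 for Cxcl5. The set was picked after the levels were seen, so it describes these arrays and is not tested. Fulvestrant thus stood with acolbifene and raloxifene for these 7 genes, while tamoxifen stood apart, which is not the division of acolbifene and raloxifene from tamoxifen and fulvestrant under which the genes were chosen. Acolbifene carries code R137 and raloxifene and fulvestrant carry R136, and high and low arrays were present within each code. Code R136 holds no vehicle array, and the part of the code in this pattern was not tested.

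**Figure D1:**
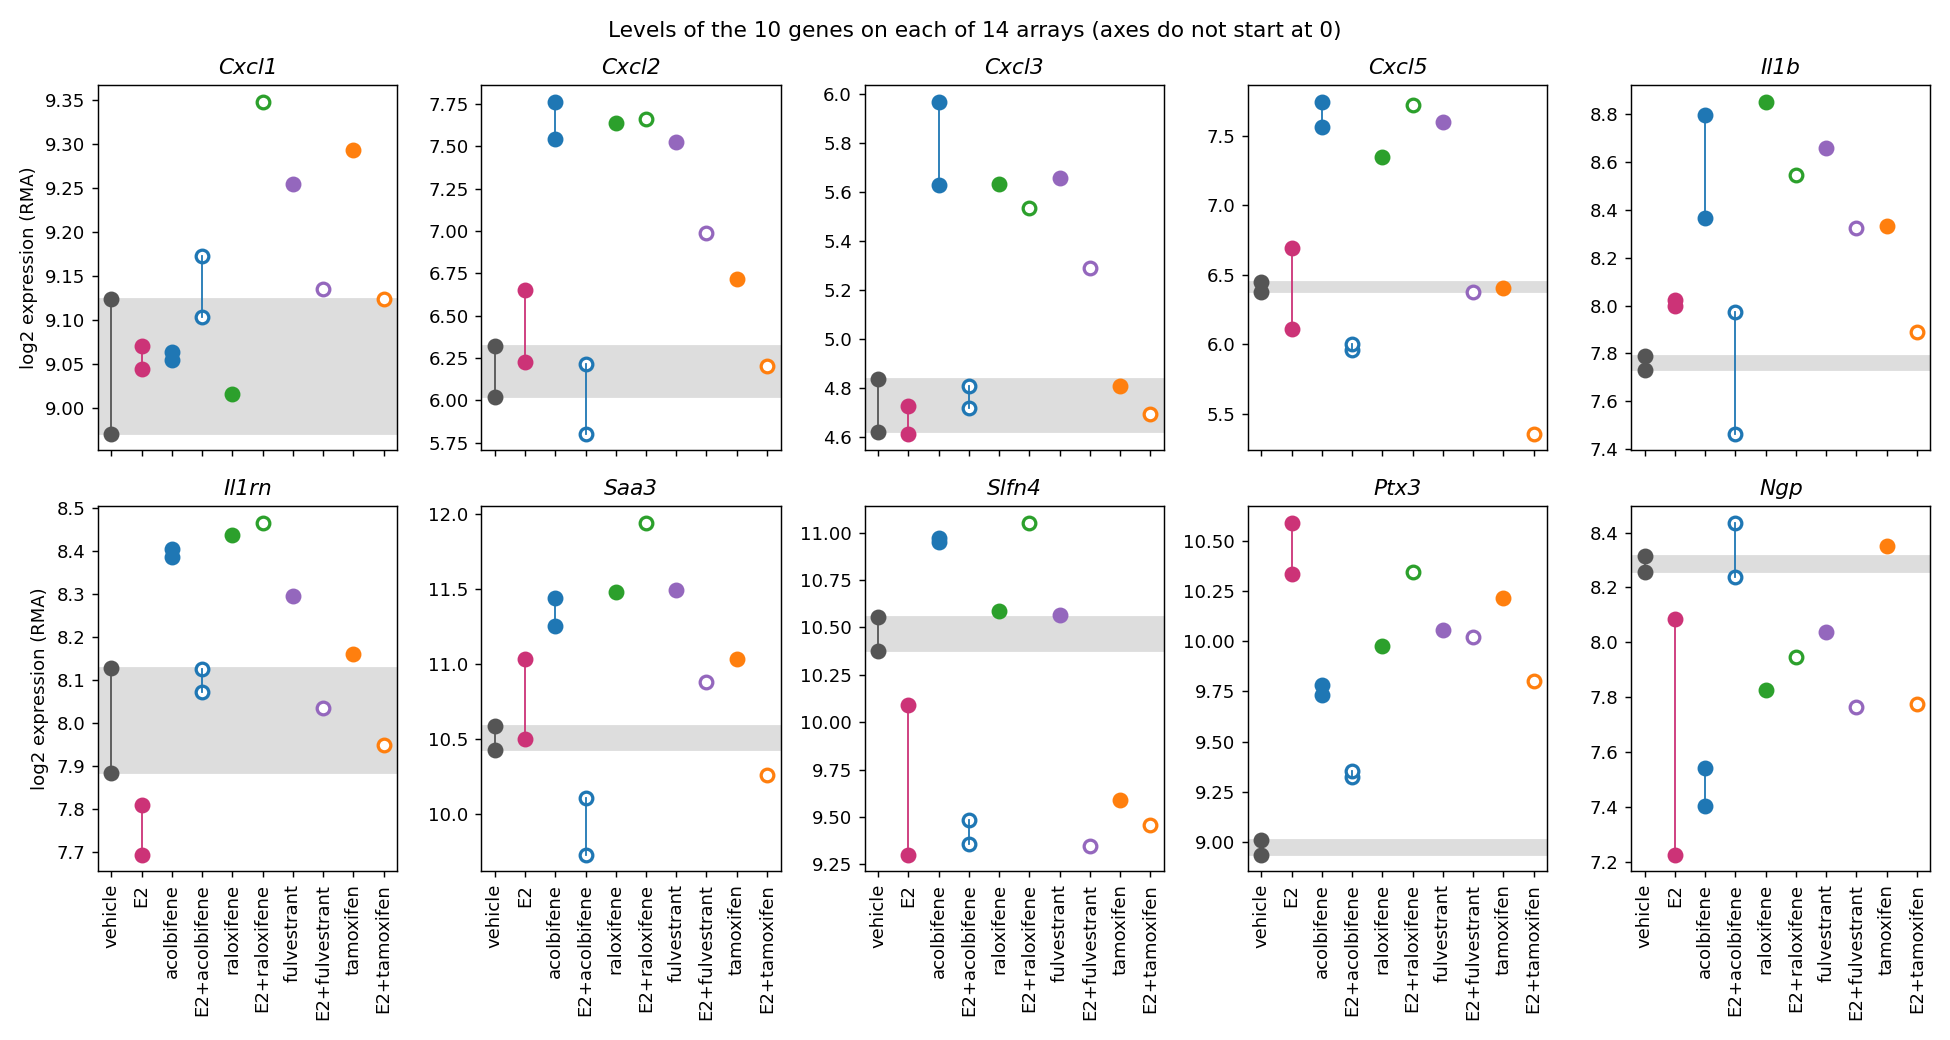
Log2 expression level (vertical axes, which do not start at 0) of each gene on 14 arrays, by treatment group (horizontal axis). Points are single arrays, open where a blocker was given with E2, lines join the 2 arrays of a group, and the grey band spans the vehicle arrays. Cxcl2 reaches 7.52 or more on 5 arrays and 6.99 or less on the other 9, whereas Cxcl1 varies by far less and Ptx3 is lowest under vehicle.

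Among the blockers given alone, Cxcl2 was higher under acolbifene, raloxifene and fulvestrant than under tamoxifen. Its levels (log2, as for all levels below) were 6.02 and 6.32 with vehicle and 7.76 and 7.54 with acolbifene. They were 7.64 with raloxifene and 7.52 with fulvestrant, and 6.72 with tamoxifen. The acolbifene arrays did not overlap with vehicle, and the difference of means was 1.48, a 2.79-fold higher level. Raloxifene stood 1.47 and fulvestrant 1.35 above the vehicle mean, and tamoxifen 0.54. The raloxifene value lay between the 2 acolbifene arrays and the fulvestrant value just below them, so these 3 could not be ordered beyond the spread of the acolbifene pair.

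Given with E2, the blockers parted further. Cxcl2 stood at 6.22 and 6.65 under E2 and at 6.21 and 5.80 under E2+acolbifene. It stood at 7.66 under E2+raloxifene, 6.99 under E2+fulvestrant and 6.20 under E2+tamoxifen. The E2+acolbifene and E2+tamoxifen arrays were thus within or below the range of vehicle and E2, the E2+raloxifene array was as high as raloxifene alone, and E2+fulvestrant fell between.

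Cxcl5 had the widest gap between its 5 highest arrays and the rest, 0.66. It measured 6.45 and 6.38 with vehicle, 7.74 and 7.56 with acolbifene, 7.35 with raloxifene, 7.59 with fulvestrant and 6.40 with tamoxifen. The tamoxifen level lay inside the vehicle range, and the acolbifene mean lay 1.24 above vehicle. With E2 the levels were 6.11 and 6.69, with E2+acolbifene 5.96 and 6.00, with E2+raloxifene 7.72, with E2+fulvestrant 6.38 and with E2+tamoxifen 5.36. The last was the lowest Cxcl5 level of all, 1.06 under the vehicle mean.

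Cxcl3 was dim throughout, below 6.65, the 40 percentile of mean level over all probe sets, so the sizes of its folds are not exact. The vehicle levels of Cxcl2 and Cxcl5 were also below 6.65, so the sizes of their folds over vehicle are not exact either. It read 4.84 and 4.62 with vehicle, 5.97 and 5.63 with acolbifene, 5.63 with raloxifene, 5.66 with fulvestrant and 4.81 with tamoxifen. Acolbifene stood 1.07 above vehicle without overlap, and tamoxifen was inside the vehicle range. Under E2 it read 4.61 and 4.73, under E2+acolbifene 4.81 and 4.72, under E2+raloxifene 5.54, under E2+fulvestrant 5.29 and under E2+tamoxifen 4.69.

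Cxcl1 did not join the other chemokines by its probe set with the highest mean, 1441855_x_at. That probe set ranged only from 8.97 on a vehicle array to 9.35 with E2+raloxifene, and acolbifene (9.06 and 9.06) lay within the vehicle range (8.97 and 9.12). The suffix marks probes that can also match other transcripts. The probe set 1419209_at read 6.55 and 6.78 with vehicle and 7.21 and 7.26 with acolbifene. It read 6.79 with raloxifene, 7.31 with fulvestrant, 7.11 with tamoxifen, 6.39 and 6.63 with E2+acolbifene and 6.55 and 7.37 on the E2 arrays. By this probe set acolbifene did not overlap with vehicle, but the E2 arrays were as far apart as the treatments. The remaining one, 1457644_s_at, read 8.28 and 8.32 with vehicle and 8.36 and 8.27 with acolbifene. It read 9.01 with raloxifene, 8.95 with fulvestrant, 8.74 with tamoxifen and 8.68 and 8.50 with E2, all above vehicle, so the probe sets of Cxcl1 disagree.

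The cytokine gene Il1b had the same 5 highest arrays, with less separation from tamoxifen. Vehicle arrays read 7.79 and 7.73, acolbifene 8.80 and 8.36, raloxifene 8.85, fulvestrant 8.66 and tamoxifen 8.34. Acolbifene and vehicle did not overlap and differed by 0.82 in their means, but the acolbifene arrays differed from each other by more than the lower one did from tamoxifen. With E2 the readings were 8.00 and 8.02, with E2+acolbifene 7.46 and 7.97, with E2+raloxifene 8.55, with E2+fulvestrant 8.32 and with E2+tamoxifen 7.89.

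The antagonist gene Il1rn spanned a smaller range by its probe set with the highest mean. It read 8.13 and 7.89 with vehicle, 8.41 and 8.39 with acolbifene, 8.44 with raloxifene, 8.30 with fulvestrant and 8.16 with tamoxifen. The acolbifene mean was 0.39 above vehicle, without overlap. Under E2 it read 7.69 and 7.81, under E2+acolbifene 8.07 and 8.13, under E2+raloxifene 8.47, under E2+fulvestrant 8.04 and under E2+tamoxifen 7.95. Its probe set 1451798_at spanned a wider range, from 7.55 and 7.67 with vehicle to 8.25 and 8.39 with acolbifene, 8.39 with raloxifene, 8.49 with fulvestrant, 7.85 with tamoxifen and 8.71 with E2+raloxifene. The last probe set, 1425663_at, was near the dim limit.

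Saa3 had its highest level with E2+raloxifene and its lowest with E2+acolbifene. It read 10.42 and 10.59 with vehicle, 11.44 and 11.26 with acolbifene, 11.48 with raloxifene, 11.49 with fulvestrant and 11.03 with tamoxifen. Each blocker alone lay above both vehicle arrays, by 0.84 for acolbifene, 0.97 for raloxifene, 0.99 for fulvestrant and 0.53 for tamoxifen against the vehicle mean. With E2 it read 11.04 and 10.50, a spread about as wide as the tamoxifen difference. With E2+acolbifene it read 10.11 and 9.73, its 2 lowest levels, with E2+raloxifene 11.94, with E2+fulvestrant 10.88 and with E2+tamoxifen 10.26.

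Slfn4 differed from the other 6 genes in that its vehicle levels were high, and 7 of the other 12 arrays lay below both of them. It read 10.38 and 10.56 with vehicle, 10.97 and 10.95 with acolbifene, 10.59 with raloxifene, 10.57 with fulvestrant and 9.59 with tamoxifen. Of the blockers alone, acolbifene was 0.50 above vehicle without overlap, whereas raloxifene and fulvestrant exceeded the higher vehicle array by less than that pair's own gap. With E2 it read 9.30 and 10.09, with E2+acolbifene 9.49 and 9.36, with E2+raloxifene 11.05, with E2+fulvestrant 9.35 and with E2+tamoxifen 9.46. Tamoxifen alone was 0.88 under the vehicle mean, near the E2 combinations other than E2+raloxifene.

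Ptx3 had a different order, with E2 at the top and vehicle at the bottom. It read 8.94 and 9.01 with vehicle and 10.59 and 10.33 with E2, and all other arrays lay above vehicle and below the higher E2 array. They were 9.78 and 9.73 with acolbifene, 9.98 with raloxifene, 10.06 with fulvestrant and 10.22 with tamoxifen, so tamoxifen was the highest blocker here. With E2 added they were 9.33 and 9.36 for acolbifene, 10.35 for raloxifene, 10.02 for fulvestrant and 9.80 for tamoxifen. A second, dim probe set, 1456903_at, had vehicle at the top instead, at 6.44 and 6.29, with all other arrays lower. With acolbifene it read 5.75 and 5.83. Its difference between E2 and vehicle was -0.30 (limma, adjusted p = 0.166).

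Ngp went the other way. It read 8.32 and 8.26 with vehicle and 7.40 and 7.54 with acolbifene, a difference of -0.81 without overlap. It read 7.82 with raloxifene, 8.04 with fulvestrant and 8.35 with tamoxifen. Under E2 it read 8.09 and 7.23, under E2+acolbifene 8.44 and 8.24, under E2+raloxifene 7.95, under E2+fulvestrant 7.76 and under E2+tamoxifen 7.77. The E2 arrays were 0.86 apart, farther than the means of acolbifene and vehicle. Under acolbifene the higher levels of Cxcl2, Cxcl3 and Cxcl5 thus stood beside a lower level of this neutrophil granule gene.

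The 7 genes that shared their 5 highest arrays (0.704% of all genes) stood higher with acolbifene, raloxifene and fulvestrant alone than with tamoxifen. The margin was only 0.03 for Il1b, and the share of all genes with this order of the blockers alone was not computed. Cxcl1 and Ptx3 did not follow this order. By its probe set with the highest mean, Cxcl1 stood at 9.06 and 9.06 with acolbifene and 9.02 with raloxifene. It stood at 9.25 with fulvestrant and 9.29 with tamoxifen. Ptx3 was highest with tamoxifen. Ngp was lower than vehicle with acolbifene, raloxifene and fulvestrant but not with tamoxifen. The contrasts with vehicle led to the choice of the genes, so their counts are a description without a test. All 4 contrasts share the vehicle arrays. At 1.5-fold or more, acolbifene was higher than vehicle for 6 of 10 genes (0.412% of all genes) and lower for Ngp (0.137% of all genes). Both acolbifene arrays lay above both vehicle arrays for 8 of the 10, as for 31% of all genes. Raloxifene was at least 1.5-fold higher for 6 (0.665% of all genes) and fulvestrant for 6 (0.66% of all genes). Tamoxifen was at least 1.5-fold higher for Ptx3 alone (0.313% of all genes) and lower for Slfn4 alone (0.258% of all genes). Il1b, Cxcl2 and Saa3 were 1.49-, 1.46- and 1.44-fold higher with tamoxifen, just under that limit, and without vehicle array 2 the tamoxifen count was 4 in place of 2. The median difference from vehicle was 0.80 for acolbifene, 0.92 for raloxifene, 0.92 for fulvestrant and 0.20 for tamoxifen, beside medians over all genes of 0.03, -0.03, -0.01 and -0.01.

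Set against tamoxifen directly, within code R136, raloxifene was at least 1.5-fold higher for 4 of 10 genes (0.154% of all genes) and fulvestrant for 4 (0.418% of all genes). No member differed by 1.5-fold between raloxifene and fulvestrant (0.379% of all genes), between acolbifene and raloxifene (1.39% of all genes) or between acolbifene and fulvestrant (1.37% of all genes). With 1 or 2 arrays a group this does not show that these blockers act alike.

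**Figure D2:**
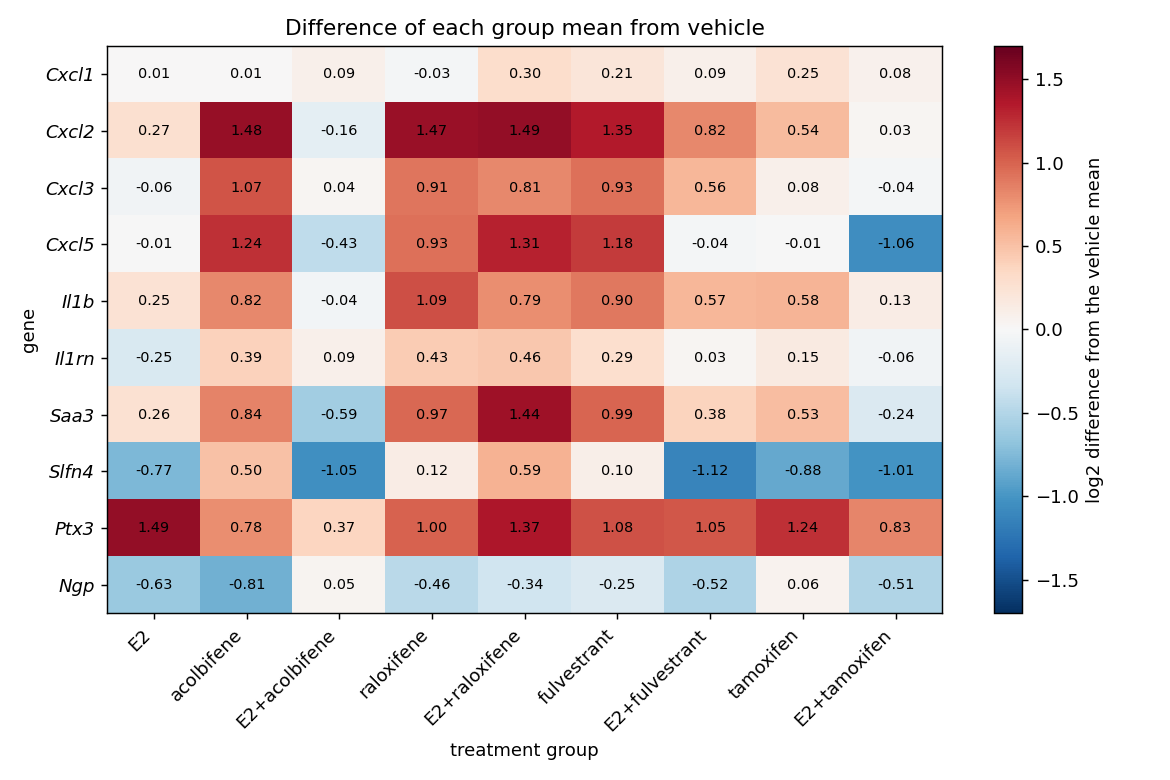
Difference of each group mean from the vehicle mean (log2, colour and printed number) for the 10 genes (rows) in 9 treatment groups (columns). Cxcl2 differs by 1.48 with acolbifene, 1.47 with raloxifene and 1.35 with fulvestrant but 0.54 with tamoxifen, and by -0.16 with E2+acolbifene against 1.49 with E2+raloxifene.

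With E2 added, most members stood lower for acolbifene, fulvestrant and tamoxifen. For raloxifene 8 of 10 stood higher, on 1 array against 1, as did 58.6% of all genes. Some of these differences were as small as 0.02 (Cxcl2) and 0.03 (Il1rn), so the count is not read as a difference between the blockers. Every array of the combination lay below the blocker alone for 8 of 10 genes with acolbifene (39.9% of all genes), and for all 10 with fulvestrant (51.2% of all genes) and with tamoxifen (58.6% of all genes). The last 2 rest on 1 array against 1. At 1.5-fold, E2+acolbifene was at least 1.5-fold lower than acolbifene for 6 of 10 genes (0.5% of all genes) and higher for Ngp (0.89% of all genes). E2+raloxifene differed from raloxifene by 1.5-fold for 0 members (0.291% of all genes). E2+fulvestrant was lower than fulvestrant for 3 members (0.621% of all genes) and E2+tamoxifen lower than tamoxifen for 2 (0.286% of all genes). Among the E2 combinations, E2+raloxifene was at least 1.5-fold higher than E2+tamoxifen for 6 genes (0.599% of all genes) and than E2+fulvestrant for 4 (0.291% of all genes). It was above each of them for all 10 genes, on 1 array each, as for 59.7% of all genes against E2+tamoxifen and 52.6% against E2+fulvestrant.

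E2 alone against vehicle was tested with limma in the fit of the 8 replicated arrays, adjusted over all probe sets. Ptx3 rose by 1.49 ± 0.10 (SE, 95% interval 1.27 to 1.71, adjusted p = 1.57e-05), and was higher on both E2 arrays than on both vehicle arrays. It was the only member called, 1 of 10 higher (2.35% of all genes) and 0 lower (1.6% of all genes). The difference of Ptx3 between E2+acolbifene and E2 was known when the gene was chosen. This call uses the same E2 arrays, so it is not independent support for that choice. Of the other 9 members 0 were called. Slfn4 differed by -0.77 ± 0.19 (adjusted p = 0.0500, just above the threshold) and Ngp by -0.63 ± 0.20 (adjusted p = 0.117). Cxcl2 (0.27), Saa3 (0.26), Il1b (0.25), Cxcl5 (-0.01), Cxcl3 (-0.06) and Cxcl1 (0.01) had adjusted p-values of 0.410, 0.419, 0.422, 0.977, 0.838 and 0.967 in limma. At an unadjusted p under 0.05, 1 member was higher (8.75% of all genes) and 3 were lower (10.9% of all genes). Without E2 array 1 Ngp was also called, and without E2 array 2 Slfn4 was, which made 2 members each.

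E2+acolbifene was tested against E2 in the same fit. Saa3 fell by 0.85 ± 0.17 (SE, 95% interval -1.22 to -0.48, adjusted p = 0.0275), and both E2+acolbifene arrays lay below both E2 arrays. Ptx3 differed by -1.12, given without its test, and kept out of the counts, because this difference was known when the gene was chosen. Of the other 9 members 0 were called higher (1.62% of all genes) and 1 lower (2.12% of all genes). The remaining chemokines Cxcl2 (-0.43, adjusted p = 0.149) and Cxcl5 (-0.42, adjusted p = 0.126) and Ngp (0.68, adjusted p = 0.0814) did not pass in limma. At an unadjusted p under 0.05, 2 of the 9 were higher (12.7% of all genes) and 3 lower (12.7% of all genes). The call for Saa3 was lost without E2 array 1 (-0.58, adjusted p = 0.105) and without E2+acolbifene array 1 (-1.04, adjusted p = 0.0519) or array 2 (-0.66, adjusted p = 0.175). Without E2 array 1 the members called were 3 in place of 1, namely Ngp, Cxcl5 and Slfn4.

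Against vehicle, E2+acolbifene gave a lower Slfn4, by -1.05 ± 0.19 (SE, 95% interval -1.46 to -0.63, limma adjusted p = 0.0343). It was 1 of 10 members lower (0.495% of all genes), with 0 higher (0.599% of all genes). Saa3 (-0.59, adjusted p = 0.113), Cxcl5 (-0.43, adjusted p = 0.168) and Ptx3 (0.37, adjusted p = 0.102) did not pass. At an unadjusted p under 0.05, 1 member was higher (9.42% of all genes) and 3 were lower (12.5% of all genes). Leaving out any 1 of the 4 arrays ended the call for Slfn4, with adjusted p-values of 0.121 to 0.212. These 3 comparisons share arrays with each other.

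The combinations of E2 with the other 3 blockers were tested against E2 in a limma fit of all 14 arrays that also fitted the code. Each rests on 1 array of the combination and on E2 array 1, which all 3 share, so it compares 1 array with 1 array. The code term takes up the whole difference between the E2 arrays. The SEs, intervals and p-values therefore rest on the spread of the vehicle, acolbifene and E2+acolbifene pairs only. The combination array is assumed to vary like them. The E2 arrays, left out of that spread, were 0.79 apart for Slfn4 and 0.58 for Cxcl5. Probe sets more than 1.5-fold apart numbered 310 in the E2 pair. They numbered 111, 153 and 75 in the vehicle, acolbifene and E2+acolbifene pairs. Earlier fits of the same arrays were known when the genes were chosen, so none of these calls is independent support for the choice. With raloxifene, Slfn4 differed by 1.75 ± 0.14 (SE, 95% interval 1.44 to 2.06, adjusted p = 0.00455) and Cxcl5 by 1.61 ± 0.13 (95% interval 1.31 to 1.91, adjusted p = 0.00455). Both combination values also lay above E2 array 2. These were 2 of 10 members higher (0.055% of all genes) and 0 lower (0.066% of all genes). Without the code as a term, the Slfn4 change was 1.36 (adjusted p = 0.0513). Against E2 array 2 instead, with no code, it was 0.96 and that of Cxcl5 1.03. Treatment and code cannot be told apart there. The mean of the 10 skeletal muscle genes was 7.86 on the E2+raloxifene array and 8.67 on E2 array 1, and its part in these changes was not tested.

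Other members had large values that did not pass in this fit. Cxcl2 differed by 1.44 (adjusted p = 0.0629), Cxcl3 by 0.92 (adjusted p = 0.170), Saa3 by 0.91 (adjusted p = 0.219) and Il1rn by 0.77 (adjusted p = 0.136) in limma. For Il1rn the probe set 1451798_at differed by 1.38 ± 0.13 (adjusted p = 0.00781). In all, 7 of the 10 members were higher at an unadjusted p under 0.05 (4.27% of all genes) and 0 lower (3.43% of all genes), again against E2 array 1 alone.

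With fulvestrant, 0 of 10 members passed in limma in either direction (0.0055% of all genes higher and 0.0055% lower), with 3 higher and 2 lower at an unadjusted p under 0.05 (2.01% of all genes higher and 1.61% lower). The largest differences were 0.76 for Cxcl2 (adjusted p = 0.953) and 0.68 for Cxcl3 (adjusted p = 0.849). With tamoxifen, 0 of 10 passed in limma either (0% of all genes higher and 0.0055% lower), with 0 higher and 3 lower at an unadjusted p under 0.05 (6.85% of all genes higher and 7.23% lower). Those 3 were Ptx3 (-0.79, adjusted p = 0.123), Saa3 (-0.77, adjusted p = 0.186) and Cxcl5 (-0.76, adjusted p = 0.160). E2+tamoxifen was also below E2 array 2 for these 3 (Ptx3 9.80 against 10.33, Saa3 10.26 against 10.50, Cxcl5 5.36 against 6.69). Slfn4 (9.46) lay between the E2 arrays (9.30 and 10.09). E2 array 2 carries the other code, so treatment and code cannot be told apart against it.

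**Figure D3:**
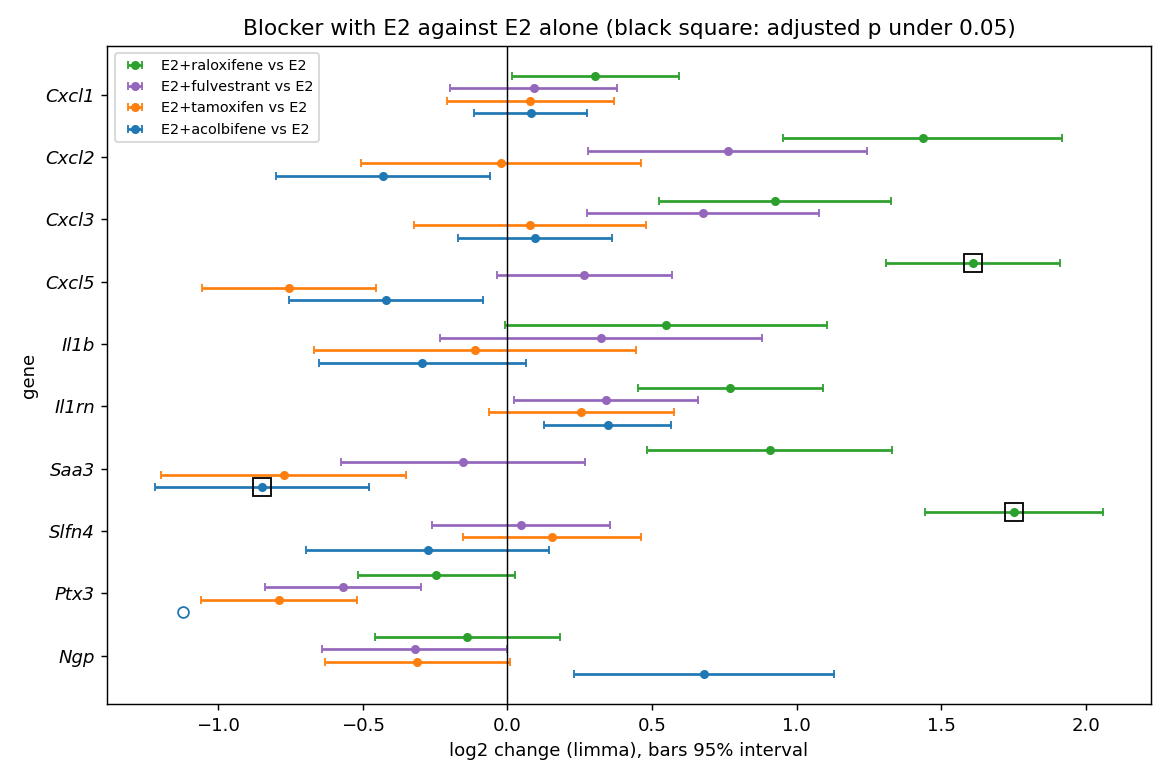
Log2 change of the 10 genes (rows) for each blocker with E2 against E2 alone, from limma. Bars give the 95% interval and black squares mark an adjusted p under 0.05. For raloxifene, fulvestrant and tamoxifen the bars leave out the spread between the E2 arrays. The open point is Ptx3 with E2+acolbifene (-1.12), shown without interval or test because it was known when the gene was chosen. Slfn4 (1.75) and Cxcl5 (1.61) are marked for E2+raloxifene and Saa3 (-0.85) for E2+acolbifene.

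Neutrophil markers were set beside the chemokines, since fewer cells of a type and less RNA per cell cannot be told apart in whole tissue. Of 31 listed markers 25 were measured, 3 of them dim, and their mean level ranged from 7.60 to 7.96 over the arrays (7.81 and 7.75 with vehicle, 7.85 and 7.89 with acolbifene, 7.90 with raloxifene, 7.91 with fulvestrant, 7.84 with tamoxifen). The 9 precursor granule genes ranged from 7.76 to 8.01. Of the 25 markers 4 had the same 5 highest arrays as Cxcl2, namely Csf3r, Clec4d, Clec4e and Itgam, against 0.704% of all genes. Csf3r, the receptor of the neutrophil growth factor G-CSF, read 8.08 and 8.12 with vehicle, 8.51 and 8.80 with acolbifene, 8.50 with raloxifene, 8.58 with fulvestrant, 8.46 with E2+raloxifene and 8.30 with tamoxifen. The lectin receptor Clec4d followed Cxcl2, at 7.07 and 7.17 with vehicle, 8.11 and 8.18 with acolbifene, 8.39 with raloxifene, 8.43 with fulvestrant, 7.79 with tamoxifen and 8.51 with E2+raloxifene. It was the 1 marker of 25 called for E2+raloxifene against E2 (1.02 ± 0.13, limma adjusted p = 0.0292).

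S100a8, S100a9, Cxcr2 and Camp were not higher than vehicle with acolbifene, although S100a8 and S100a9 were so with raloxifene, fulvestrant and tamoxifen. S100a8, a calcium-binding protein abundant in neutrophils, read 9.54 and 9.45 with vehicle but 9.20 and 9.18 with acolbifene, 9.83 with raloxifene, 9.72 with fulvestrant and 9.65 with tamoxifen. S100a9, its partner, read 9.35 and 9.31 with vehicle, 9.18 and 9.14 with acolbifene, 9.76 with raloxifene, 9.64 with fulvestrant and 9.63 with tamoxifen. The chemokine receptor Cxcr2 read 8.15 and 7.86 with vehicle and 7.86 and 7.89 with acolbifene. Camp, a granule peptide, read 7.44 and 7.26 with vehicle and 6.73 and 6.94 with acolbifene, lower as Ngp was. Against vehicle, acolbifene was at least 1.5-fold higher for 3 of the 25 markers (Clec4d by 1.02, Clec4e by 0.86 and Itgam by 0.77), against 0.412% of all genes, and lower for 0. Macrophages also express these 3.

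**Figure D4:**
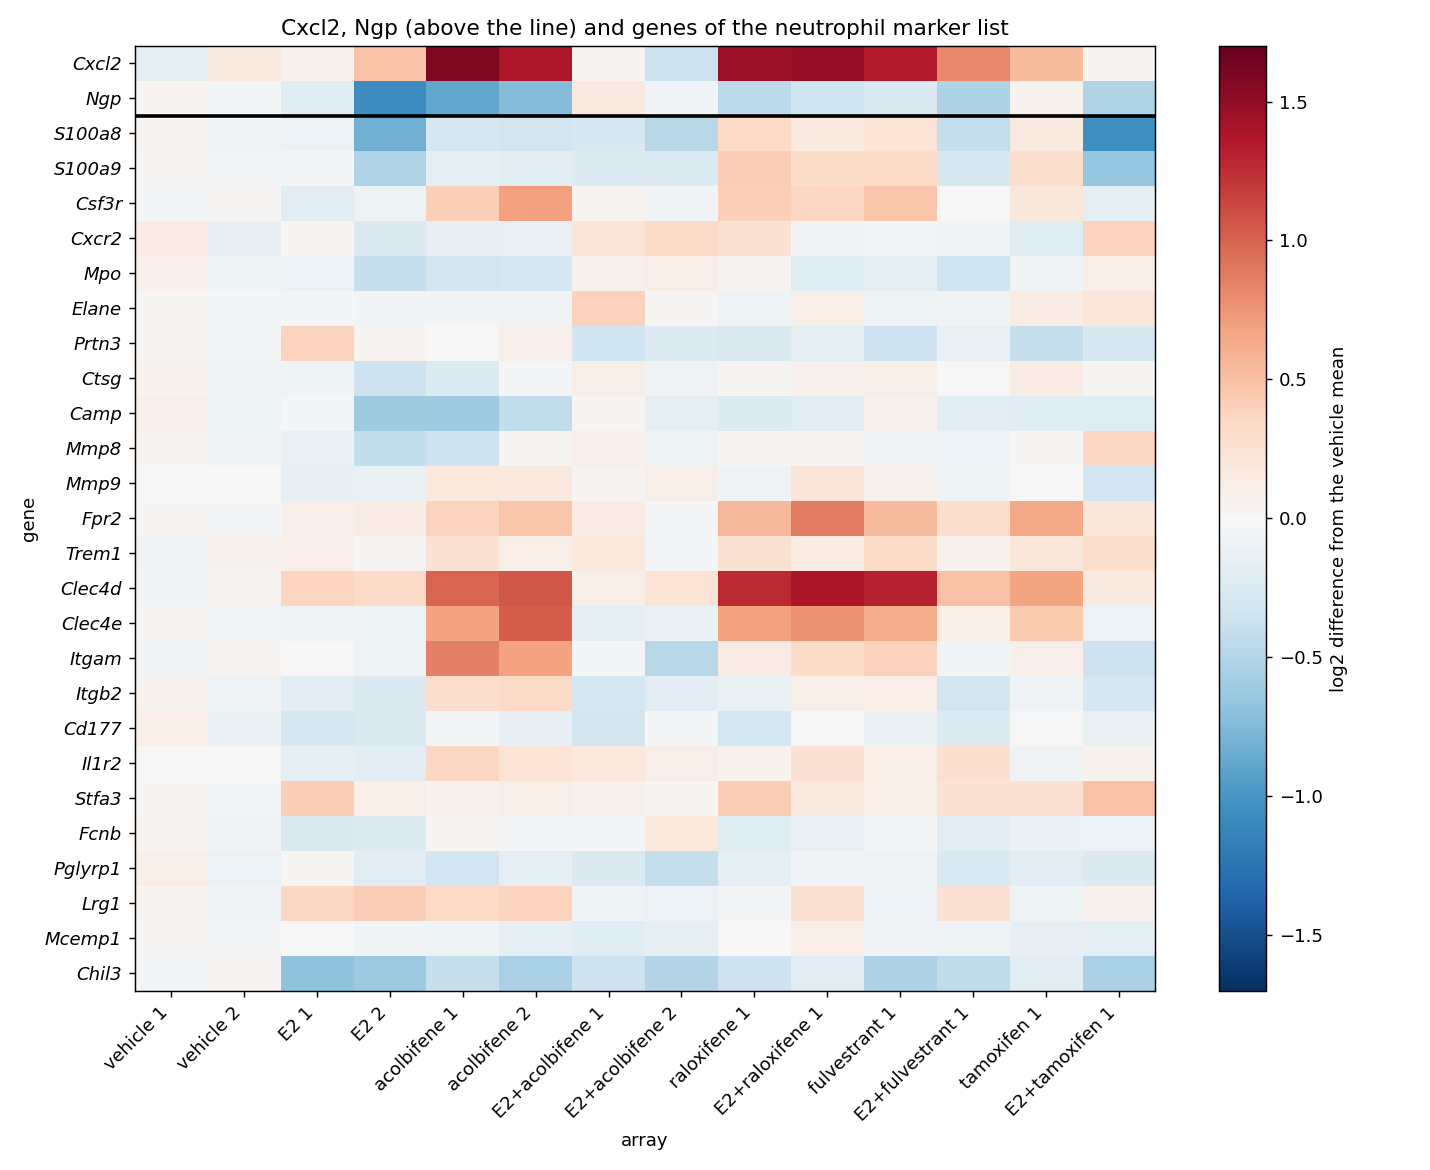
Difference from the vehicle mean (log2, colour) of Cxcl2 and Ngp, above the line, and of the 25 measured neutrophil markers (rows) on each of 14 arrays (columns). Clec4d follows Cxcl2, from 7.07 on a vehicle array to 8.51 with E2+raloxifene, whereas S100a8 is lower with acolbifene (9.20 and 9.18) than with vehicle.

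Macrophage markers were also higher with acolbifene in their median, but not each of them. Only 1 of 19, Arg1, was at least 1.5-fold higher (0.412% of all genes). Cd68 was lower, at 10.59 and 10.54 with vehicle and 10.47 and 10.43 with acolbifene. The median difference of the 19 markers from vehicle was 0.25, beside 0.0011 for the neutrophil markers and 0.03 for all genes. With raloxifene and fulvestrant the macrophage median was -0.03 and 0.13, beside -0.03 and -0.01 for all genes. Of the 19 markers 5 had the same 5 highest arrays as Cxcl2, against 0.704% of all genes. Fibroblast markers were like this too, with a median of 0.21 with acolbifene and 3 of 9 sharing those 5 arrays. The mean of 19 measured macrophage and monocyte markers was 10.31 and 10.26 with vehicle, 10.61 and 10.58 with acolbifene, 10.33 with raloxifene, 10.42 with fulvestrant, 10.24 with tamoxifen and 10.47 with E2+raloxifene. Arg1, an arginine-degrading enzyme of alternatively activated macrophages, was 1.63 above vehicle with acolbifene, 0.75 with raloxifene and 0.84 with fulvestrant. The part of macrophages and fibroblasts in the levels of Cxcl2, Saa3 and the other members was not tested. The 16 glucocorticoid-responsive genes averaged 10.07 and 10.09 with vehicle and 10.32 to 10.77 on the 12 other arrays, among them those with low chemokine levels. Their part was not tested either.

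Some genes of related pathways were called for E2 alone. Against vehicle, 5 of 32 acute-phase and IL-6/STAT3 genes were called higher by limma and 0 lower, beside 2.35% and 1.6% of all genes, led by the feedback inhibitor Socs3 (1.36 ± 0.11) and the transcription factor Cebpd (0.75 ± 0.09). Of 27 other chemokines 3 were higher and 0 lower, namely the monocyte attractants Ccl12 (1.08 ± 0.11) and Ccl7 (0.66 ± 0.09) and Cxcl14 (0.46 ± 0.11). Of 20 genes of the interleukin-1 family and its signalling 3 were higher and 0 lower: the inhibitory kinase Irak3 (0.73 ± 0.10), the receptor Il1r1 (0.54 ± 0.09) and the inflammasome sensor Nlrp3 (0.52 ± 0.11). Of 30 NF-kB feedback and target genes 3 were higher and 0 lower, with Zfp36, which destabilises cytokine mRNAs, at 0.41 ± 0.08. Of 6 genes listed as further CXC chemokines and chemokine receptors, 2 were higher, namely Ackr3 (0.69 ± 0.13), a scavenging receptor, and Cxcl15 (0.49 ± 0.08). In that list 1 was lower, the dim platelet chemokine Ppbp (-0.43 ± 0.08). The median difference of that list was -0.08. The median differences of the 4 lists before it were 0.01, -0.01, -0.14 and 0.05, beside -0.02 for all genes.

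E2+acolbifene was lower than E2 for some genes of these lists, in a comparison that shares the E2 arrays with the preceding one. Socs3 (-1.10 ± 0.11), Ccl12 (-0.87 ± 0.11), Ccl7 (-0.69 ± 0.09), Ccl2 (-0.64 ± 0.09) and Irak3 (-0.48 ± 0.10) were called lower by limma. By list, 4 of 32 acute-phase genes, 3 of 27 other chemokines, 1 of 20 interleukin-1 genes and 4 of 30 NF-kB genes were lower, and 0 of each were higher, beside 2.12% of all genes lower and 1.62% higher. Of the 6 further CXC chemokines and receptors, Ackr3 was lower (-0.82 ± 0.13) and Ppbp higher (0.73 ± 0.08). The limma fits of E2+raloxifene, E2+fulvestrant and E2+tamoxifen against E2 set 1 array against 1 and called few genes of any kind. That genes of these 5 lists were not among them does not show that these blockers left the lists unchanged.

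In the untested comparison with vehicle, 1 of 20 interleukin-1 genes and 2 of 32 acute-phase genes were at least 1.5-fold higher under acolbifene, beside 0.412% of all genes. The receptor Il1r1 was 0.68 higher with acolbifene, 0.64 with raloxifene, 0.58 with fulvestrant and 0.35 with tamoxifen. The protease inhibitor Timp1, an acute-phase gene in mice, was 0.69, 0.61 and 0.89 higher with acolbifene, raloxifene and fulvestrant. None of 27 other chemokines, of 6 further CXC chemokines and receptors and of 30 NF-kB genes was 1.5-fold higher with acolbifene. Their medians were 0.06, 0.01 and 0.15, beside 0.03 for all genes.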

How the data were processed

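The authors deposited log2 expression values of 14 Affymetrix arrays. Per the submitters' processing notes they used RMA, whose version the notes do not state. That method subtracts background, equalises the distributions of the arrays and pools the probes of a set, which compresses weak signals. The array type named in the design text has other probe sets than the deposited table. Gene names therefore came from the platform annotation that matches the table: of 45037 probe sets other than controls, 34945 carried 1 symbol, 932 several and 9160 none. For each array 20 ug of RNA was labelled, per the labels' protocols. Precision is set by the few arrays per group.

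The tests were run in R 4.3.3 with limma 3.58.1 (lmFit, eBayes, Benjamini-Hochberg adjustment over 45037 probe sets, adjusted p under 0.05) and checked on simulated data. Plain differences of group means have no test. Shares of all genes use 18193 genes, each by its probe set with the highest mean. The replicate numbers were not treated as pairs. The members and lists were chosen with earlier results of these data known. Named genes are the members, list genes that passed a test or were among the 4 largest differences of their list, neutrophil markers, and the genes most correlated with Cxcl2, Saa3 and Ngp. Alternatives were other normalization, filters, covariates, probe set rules and omitted arrays. The dose of E2 is left out, as the labels give it in a doubtful unit.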

Additional observations from a re-analysis of the deposited data

Results flagged for a closer look

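For Cxcl2, Cxcl5, Il1b, Saa3, Ptx3 and Ngp both acolbifene arrays lay to one side of both vehicle arrays. Both E2+acolbifene arrays lay to the opposite side of both E2 arrays. The share of all genes with this order was not computed, so it is not read as a result about these genes. For acolbifene against vehicle alone, 31% of all genes lay above without overlap and 19.7% below. The nearest E2+acolbifene and E2 arrays read 6.21 and 6.22 for Cxcl2, and 7.97 and 8.00 for Il1b. Against E2, E2+acolbifene was not called in limma for Cxcl2, Cxcl5, Il1b and Ngp (adjusted p = 0.149, 0.126, 0.284 and 0.0814). The acolbifene difference without E2 minus that with E2 was 1.91 for Cxcl2, 1.66 for Cxcl5, 1.12 for Il1b, 1.69 for Saa3, 1.91 for Ptx3 and -1.49 for Ngp. Each is the difference of 2 plain differences, 1.48 and -0.43 for Cxcl2, 1.24 and -0.42 for Cxcl5, 0.82 and -0.29 for Il1b, 0.84 and -0.85 for Saa3, 0.78 and -1.12 for Ptx3, and -0.81 and 0.68 for Ngp. These differences were not tested, because the genes were chosen with the acolbifene response known. The E2 arrays carry different raw-file codes, and for Ngp they were 0.86 apart.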

How the results depend on the processing

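No result reversed. Counts below are members, then all genes, called by limma. E2 against vehicle called 1 and 719; with the code as a term 2 and 256, with an intensity trend 2 and 1244, with dim probe sets removed 2, and without an array in turn 1 to 2 and 229 to 373. E2+acolbifene against E2 called 1 (Ptx3 left out) and 680; with the code 3 and 116, with a trend 2 and 1412, with quantile normalization once more 0 and 383 (Saa3 lost), and without an array 0 to 3 and 51 to 116. E2+acolbifene against vehicle called 1 and 199; with a trend 3 and 970, with dim probe sets removed 351, with quantile normalization 0, and without an array 0 and 20 to 37. E2+fulvestrant against E2 called 0 and 2; without the code 8, with a trend 1 and 49, with dim probe sets removed 10, and without E2 array 1 and the code 28. E2+raloxifene against E2 called 2 and 22; without the code 43, with a trend 6 and 211, with dim probe sets removed 55, and without E2 array 1 and the code 83. E2+tamoxifen against E2 called 0 and 1; without the code 2 and 549, with a trend 3 and 293, with dim probe sets removed 2, with quantile normalization 0, and without E2 array 1 and the code 3 and 668. Leaving out E2 array 1 with the code kept was not run, since no E2 array of that code remains. With the replicate block, E2 against vehicle called 2 members and 582 genes, and E2+acolbifene against E2 called 406 genes; deviations of same-numbered arrays correlated between -0.16 and 0.14, so the numbers do not pair the arrays. Tamoxifen was 1.5-fold from vehicle for 2 members, for 1 with the mean over probe sets, for 4 with quantile normalization and for 4 without vehicle array 2. The shared set of 5 highest arrays, an alternative set added after seeing the data, held for 7 members, and for 6 after quantile normalization. Ptx3 under acolbifene, raloxifene, fulvestrant and tamoxifen came to 0.10, 0.27, 0.44 and 0.45 above vehicle with the mean over its probe sets. The cause of these changes was not tested. Weak signal limits Cxcl3, which was dim on all arrays. It also limits Cxcl2 and Cxcl5, which were dim with vehicle, on E2 array 1 and with E2+tamoxifen. Having 1 array in a group limits every value for raloxifene, tamoxifen and fulvestrant.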

Other observations

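The genes whose levels over the 14 arrays were most like those of Cxcl2 were Pla2g7, a phospholipase of macrophages (r = 0.97), the collagen Col12a1 (0.95), the matrix proteoglycan Vcan (0.95), the syndecan Sdc1 (0.94) and Clec4d (0.93). Col12a1 read 7.24 and 7.22 with vehicle, 8.39 and 8.41 with acolbifene, 8.37 with raloxifene, 8.50 with fulvestrant, 8.61 with E2+raloxifene and 7.53 with tamoxifen. For Saa3 they were the lysosomal lipase Lipa (0.94), the lectin receptor Clec4n (0.94), Ms4a6d (0.90), Vcan (0.90) and Tspan6 (0.90). For Ngp they were Miip (0.88), Mrpl52 (0.86), Camp (0.86), Gm1673 (0.85) and Baalc (0.84). These are Pearson correlations over the same 14 arrays, picked as the highest of all genes, and describe likeness only.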
